A study of Mus musculus with 6 samples.

Results

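The genes described here are 35 mouse genes for folding and quality control of proteins in the endoplasmic reticulum (ER), chosen by symbol for that role, among 21899 genes listed in each table. They were read in induced regulatory T cells (iTregs), CD4+ T cells turned into FoxP3-expressing suppressor cells in culture, from 3 KO samples and 3 WT samples profiled by bulk mRNA sequencing. KO cells came from mice named Dlst-Treg iKO, a name that gives Dlst as the gene and Treg cells as the target, and WT cells from iWT mice. In both groups splenic CD4+ T cells spent 2 days under Treg-inducing conditions with 4-hydroxytamoxifen, the active form of tamoxifen, before CD4+FoxP3-GFP+tdTomato-RFP+ cells were sorted. The labels used here name neither the alleles and the promoter behind the deletion nor the age or number of the mice. Whether samples of a group came from separate mice is therefore unknown, and the spread that the p-values rest on may be technical.

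The ER receives newly made secretory and membrane proteins through the SEC61 channel, folds them with chaperones and disulphide isomerases, and sends failed ones back to the cytosol for destruction by the proteasome, a route called ER-associated degradation (ERAD). When unfolded proteins build up, the sensors IRE1, ATF6 and PERK start the unfolded protein response. IRE1 splices Xbp1 mRNA into a form that encodes an active transcription factor, ATF6 is cut to release another, and both raise chaperone and ERAD genes, while PERK slows translation and favours ATF4. T cells enlarge this machinery after activation. The counts are per gene, so spliced and unspliced Xbp1 mRNA are read together and cleaved ATF6 protein is not measured.

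Dlst, the E2 subunit gene of the 2-oxoglutarate dehydrogenase complex and the gene targeted for deletion, stood at 125, 129 and 129 CPM (the count of a gene scaled to the size of its library) in KO replicates 1 to 3, against 161, 149 and 149 CPM in WT replicates 1 to 3. Its log2 fold change, KO minus WT, was -0.26 (SE 0.05) with an edgeR adjusted p of 0.0894, above the threshold of 0.05. Libraries held 33590510 to 49772670 estimated counts in KO and 35647816 to 47526481 in WT. The 5 T cell and Treg markers Cd3e, Cd4, Foxp3, Il2ra and Ctla4 were present in every library. They summed to 2893 to 3270 CPM in KO and 3011 to 3449 CPM in WT, and Il2ra made up most of each sum. Foxp3 stood at 231, 207 and 227 CPM in KO, against 154, 202 and 198 CPM in WT (edgeR adjusted p = 0.305). Every KO library of Foxp3 lay above every WT library, against 11.9% of all tested genes. Cd4 stood at 465, 445 and 432 CPM in KO, against 507, 506 and 522 CPM in WT. Every KO library of Cd4 lay below every WT library, against 10.9%. In Cd3e, Il2ra and Ctla4 the groups overlapped. KO replicate 1 stood apart in markers of other cells. Its 7 neutrophil markers summed to 294 CPM, with 72.4 CPM in KO replicate 2 and 71.0 CPM in KO replicate 3, against 30.8, 7.27 and 4.61 CPM in WT, and its 7 monocyte and macrophage markers to 374 CPM, with 98.1 CPM in KO replicate 2 and 109 CPM in KO replicate 3, against 30.6, 21.6 and 19.95 CPM in WT. All 7 neutrophil markers and 6 of the 7 monocyte and macrophage markers were highest in KO replicate 1. The 4 B cell markers summed to 24.2 to 25.7 CPM in KO, against 74.4, 24.8 and 11.6 CPM in WT replicates 1 to 3. The 5 CD8 and NK markers summed to 163, 133 and 137 CPM in KO, against 97.1, 142 and 92.8 CPM in WT. In 2 of these, Cd8a and Cd8b1, every KO library lay above every WT library, against 11.9% of all tested genes. The 5 dendritic cell markers summed to 11.7, 8.36 and 8.39 CPM in KO, against 5.52, 6.14 and 4.48 CPM in WT. Mrc1 (monocyte and macrophage) and Itgax (dendritic cell) had an edgeR adjusted p under 0.05, both higher in KO.

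ER chaperone genes are known for a shared promoter element, the ER stress element (ERSE), in which a site for NF-Y and a site for ATF6 or XBP1 lie a fixed distance apart. RefSeq promoter windows (GRCm38.p6, 250 bases before to 50 bases after the start site) were matched by symbol for 29 of the 35 genes, and the other 6 are Hyou1, Manf, Atf6, Derl1, Sec61a1 and Ssr2. An exact ERSE, searched on both strands as CCAAT, any 9 bases and CCACG, lay in 9 of the 29, or 31.0%, against 37 of 27025 genes with a window, or 0.137%. The stretches around these matches are shown because they carry the element that these 9 genes share. Each is read 5′ to 3′ on the strand of the gene, and capitals mark the fixed letters of the element. On the opposite strand the element reads CGTGG, 9 bases and ATTGG.
Hspa5 (chr2:34772010-34772058, plus strand): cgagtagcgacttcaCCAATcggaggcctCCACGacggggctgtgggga
Hsp90b1 (chr10:86705518-86705671, minus strand): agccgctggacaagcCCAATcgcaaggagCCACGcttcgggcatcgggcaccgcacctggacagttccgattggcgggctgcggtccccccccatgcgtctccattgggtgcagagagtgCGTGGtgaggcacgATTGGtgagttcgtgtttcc
Dnajc3 (chr14:118937812-118937860, plus strand): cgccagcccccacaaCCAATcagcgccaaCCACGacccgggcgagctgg
Creld2 (chr15:88819505-88819553, plus strand): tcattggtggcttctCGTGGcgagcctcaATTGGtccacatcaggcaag
Calr (chr8:84847060-84847108, minus strand): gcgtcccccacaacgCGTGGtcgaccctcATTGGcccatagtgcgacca
Canx (chr11:50325785-50325833, minus strand): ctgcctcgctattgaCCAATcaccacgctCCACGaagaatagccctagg
Pdia6 (chr12:17266476-17266524, plus strand): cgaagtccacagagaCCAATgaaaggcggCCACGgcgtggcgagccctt
Syvn1 (chr19:6046517-6046565, plus strand): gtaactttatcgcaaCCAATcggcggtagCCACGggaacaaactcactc
Derl3 (chr10:75893227-75893275, plus strand): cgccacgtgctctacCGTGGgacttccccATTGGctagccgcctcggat

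Hsp90b1 was the gene among the 9 with more than 1 match, with 2, on opposite strands. In the other 8 the match began 44 bases (Syvn1) to 162 bases (Calr) before the start site. The 9 genes are spread over chromosomes 2, 8, 10, 11, 12, 14, 15 and 19, with Hsp90b1 and Derl3 both on chromosome 10. The compact form of the element, ERSE-II, searched on both strands as ATTGG, any base and CCACG, was found in 2 other genes, Dnajb11 and Herpud1, against 12 of 27025 genes, or 0.0444%. These stretches are shown for comparison with the full element, with the same use of capitals.
Dnajb11 (chr16:22857837-22857877, plus strand): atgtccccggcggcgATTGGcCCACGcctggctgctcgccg
Herpud1 (chr8:94386362-94386402, plus strand): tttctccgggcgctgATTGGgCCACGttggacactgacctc

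The core of the unfolded protein response element, TGACGTGG, was found in 1 of the 29, Vcp, against 0.714% of all genes, and TGATGNAAT, a form of the site bound by ATF4, both searched on both strands, in 0 of the 29, against 1.08% of all genes. No match of a motif overlapped a match of another. A match is a stretch of letters and not a measured binding site.

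**Figure D1:**
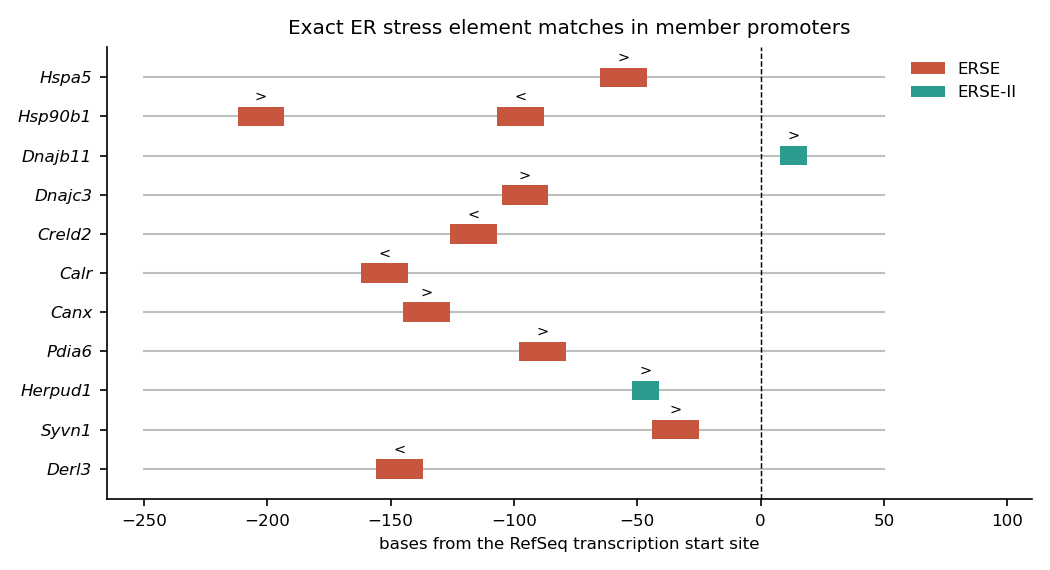
Position of exact ERSE (red) and ERSE-II (green) matches in the RefSeq promoter windows of the 11 genes that hold a match, in bases from the transcription start site (dashed line), with > for the strand of the gene and < for the other strand. The ERSE matches all begin between 44 and 212 bases before the start site, and the ERSE-II of Dnajb11 lies just after it.

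No member gene differed between KO and WT at the threshold. All 35 had enough counts to be tested, and 0 were called higher and 0 lower in KO by edgeR's quasi-likelihood test (Benjamini-Hochberg adjusted p under 0.05 over 12768 genes), where 0.674% of all tested genes were called, 58 higher (0.454%) and 28 lower (0.219%). DESeq2 called 0 of the 35, against 3.84% of all genes it tested, and limma on log2(TPM + 1) also 0, against 0.305%. The adjusted p of the 35 ran from 0.184 (Sdf2l1) to 0.99 (Atf6). At an unadjusted p under 0.05, 6 of the 35 were lower in KO, against 6.6% of all tested genes, and 1 was higher, against 8.47%. Of the log2 fold changes of the 35, 29 lay below 0, against 50.9% of all tested genes, and their median was -0.09, against -0.00 over all tested genes. In 10 of the 35 every KO library lay below every WT library, against 10.9% of all tested genes, and in 2, Ern1 and Edem2, every KO library lay above every WT library, against 11.9%. In bulk samples fewer cells of a type and less RNA per cell cannot be told apart.

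**Figure D2:**
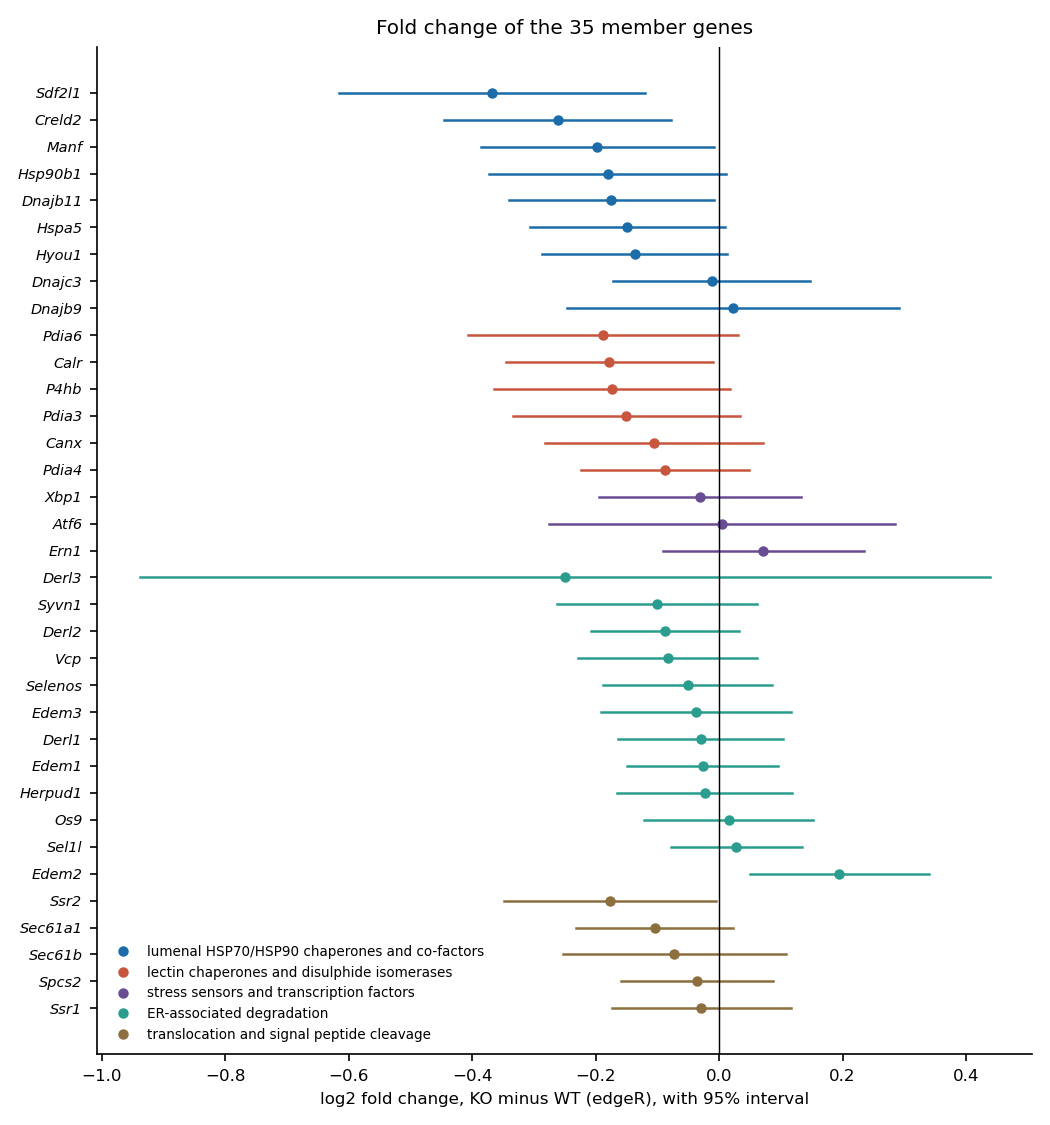
Log2 fold change of each of the 35 genes, KO minus WT, from edgeR, with its 95% interval, coloured and ordered by role. The chaperones and isomerases at the top lie mostly left of 0, many with intervals that cross it, the sensors and ERAD genes lie around 0, and Derl3, the gene with the fewest counts, has the widest interval.

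The median difference was smaller without KO replicate 1. This library was the lowest of the 6 libraries for 25 of the 35 genes (71.4%), against 26.6% of all tested genes, and WT replicate 1 was the highest for 15 of the 35 (42.9%), against 24.6%. Set against the mean of each gene over the 6 libraries, the median difference over the 35 on the log2 CPM scale was -0.15, 0.02 and -0.00 in KO replicates 1 to 3, against 0.05, 0.03 and 0.05 in WT replicates 1 to 3. Without KO replicate 1 the median log2 fold change of the 35 was -0.04, with 24 below 0, and without WT replicate 1 it was -0.09, with 30 below 0. Without either of these libraries it was -0.04, with 27 below 0. KO replicate 1 is also the library with the most neutrophil and monocyte mRNA. The summed markers of both cell types were also higher in KO replicates 2 and 3 than in every WT library. The part of those cells in the lower chaperone levels was not tested.

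**Figure D3:**
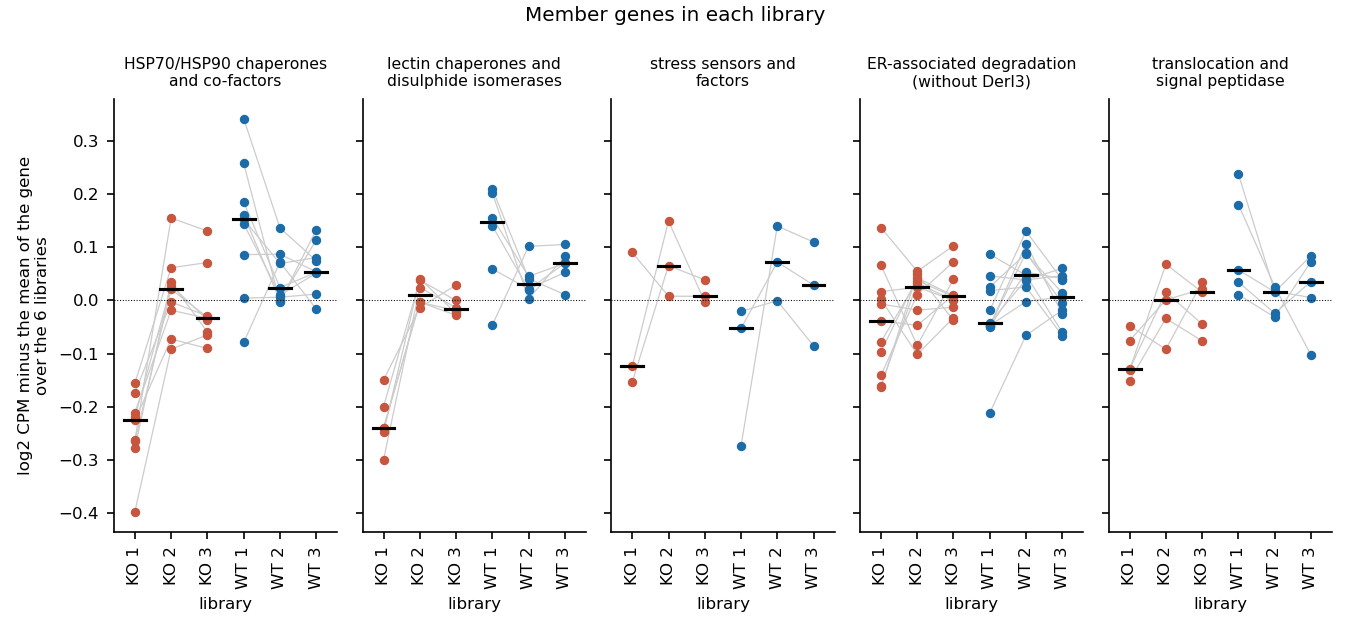
Log2 CPM of each gene minus the mean of that gene over the 6 libraries, for the 5 role lists, with a point for each gene, grey lines joining the libraries of a group and a black bar for the median (red, KO; blue, WT). Derl3, at under 1 CPM in every library, is left out. In the 2 chaperone panels every point of KO replicate 1 is below 0, with medians of -0.22 and -0.24, while KO replicates 2 and 3 lie close to 0.

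The lumenal chaperones of the HSP70 and HSP90 families and their co-factors had the lowest median log2 fold change of the 5 role lists. Of these 9 genes 0 were called, 8 had a log2 fold change below 0 and the median was -0.17. The median of the lectin chaperones and disulphide isomerases was close to it, at -0.16. In 6 of the 9 every KO library lay below every WT library, against 10.9% of all tested genes. Hspa5, which encodes BiP, the HSP70 chaperone of the ER and a brake on all 3 stress sensors, stood at 552, 656 and 627 CPM in KO replicates 1 to 3, against 683, 683 and 667 CPM in WT replicates 1 to 3. All 3 KO libraries were below the WT libraries, with KO replicate 2 the nearest to them. The Hspa5 log2 fold change was -0.15 (SE 0.07, 95% interval -0.31 to 0.01, edgeR adjusted p = 0.361), and -0.08 without KO replicate 1.

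Sdf2l1, a partner of the BiP co-chaperone complex with DNAJB11, stood at 30.9, 38.2 and 38.9 CPM in KO, against 51.6, 44.8 and 42.9 CPM in WT. The groups did not overlap, with the lowest library in KO replicate 1 and the highest in WT replicate 1. It had the lowest log2 fold change of the 35, -0.37 (SE 0.11, 95% interval -0.62 to -0.12), with an edgeR adjusted p of 0.184, a DESeq2 adjusted p of 0.0507 and a range of 0.0507 to 0.322 over all settings. Creld2, a secreted ER stress protein with isomerase activity, followed at 37.1, 41.2 and 40.7 CPM in KO, against 51.9, 43.3 and 47.6 CPM in WT. Its log2 fold change was -0.26 (SE 0.08, edgeR adjusted p = 0.195). Without both replicates numbered 1, these values were -0.18 for Sdf2l1 and -0.15 for Creld2.

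The other genes of this list lay closer to 0 than Sdf2l1 and Creld2. Manf, an ER protein that binds BiP and is secreted under stress, was at a log2 fold change of -0.20, Hsp90b1, the HSP90 of the ER also called GRP94, at -0.18, Dnajb11, a J-domain co-chaperone of BiP, at -0.17, and Hyou1, which exchanges the nucleotide of BiP, at -0.14. In all of these but Hsp90b1 the KO libraries lay below the WT libraries. Manf had counts with decimals in every library, and its annotated span overlaps that of Rbm15b on the same strand and Dcaf1 on the other, so its level is uncertain. The remaining pair lay near 0. Dnajc3, a co-chaperone that also restrains PERK, was at -0.01, and Dnajb9, a J-domain protein that restrains IRE1, at 0.02, or 0.06 and 0.15 without KO replicate 1.

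Calr, Canx and the disulphide isomerases had the highest summed level of the 5 role lists. In TPM, which are corrected for gene length and allow levels of different genes to be compared, the level of Calr was highest, with a mean of 602 ± 51.5 TPM in KO and 683 ± 34.4 TPM in WT (SD, n = 3 each), followed by Pdia3 with 524 ± 57.8 TPM in KO and 590 ± 32.4 TPM in WT, and by Hspa5 with 417 ± 37.3 TPM in KO and 465 ± 8.35 TPM in WT. These 3 kept this order in every library. Of the 6 genes of the list 0 were called, all 6 had a log2 fold change below 0 and the median was -0.16. In 2 of the 6, Calr and P4hb, the KO libraries lay below the WT libraries, against 10.9% of all tested genes.

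Calr, the calcium-binding lectin chaperone calreticulin, stood at 681, 803 and 789 CPM in KO, against 896, 830 and 845 CPM in WT. The nearest KO and WT libraries, both numbered 2, were 803 and 830 CPM. The log2 fold change of Calr was -0.18 (SE 0.07, 95% interval -0.35 to -0.01, edgeR adjusted p = 0.305), and -0.11 without KO replicate 1. P4hb, the classical protein disulphide isomerase, stood at 399, 470 and 465 CPM in KO, against 545, 485 and 475 CPM in WT, a log2 fold change of -0.17 (SE 0.08, edgeR adjusted p = 0.37). Pdia6 was at -0.19, Pdia3, the isomerase that works with calreticulin and calnexin, at -0.15, Canx, the membrane-bound lectin chaperone calnexin, at -0.11 and Pdia4 at -0.09. In each of these 4 the groups overlapped.

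**Figure D4:**
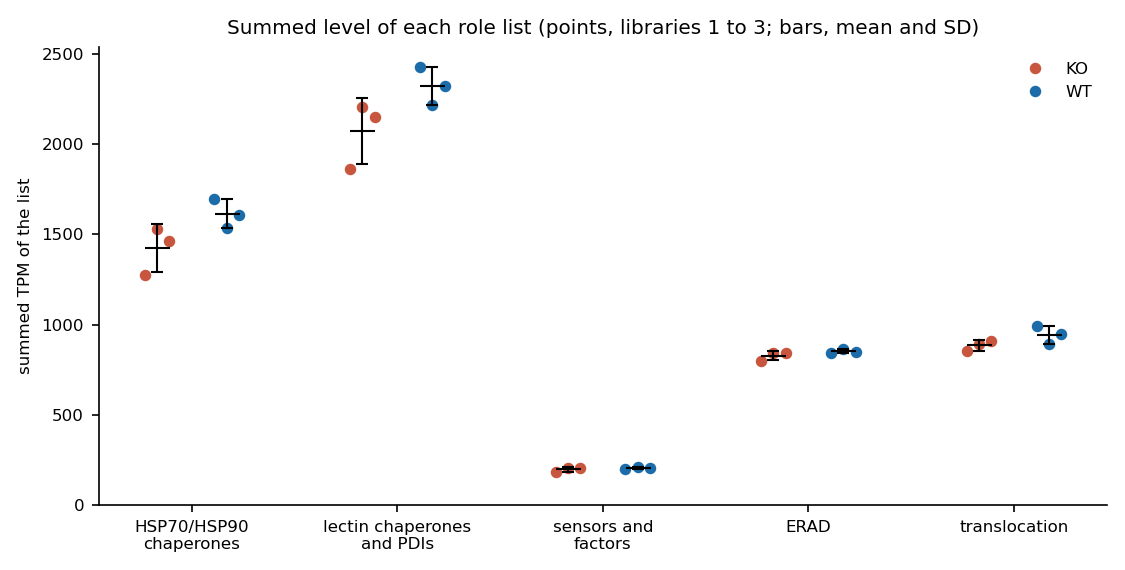
Summed TPM of the genes of each role list in every library, KO left of WT, with the mean and SD of the 3 libraries. For the 9 HSP70 and HSP90 chaperones and co-factors the KO libraries sum to 1275, 1531 and 1464 TPM and the WT libraries to 1696, 1538 and 1610 TPM, and the ERAD genes sum to 798 to 844 TPM in KO and 845 to 864 TPM in WT.

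Summed over all 35 genes, KO libraries held 4971, 5676 and 5572 TPM, against 6159.5, 5719 and 5939 TPM in WT libraries. KO replicate 2 and WT replicate 2 were the nearest of these, and KO replicate 1 was the lowest. The lectin chaperones and isomerases made up the largest share, with 1863, 2204 and 2152 TPM in KO and 2425, 2218 and 2325 TPM in WT. The ratio of the KO mean to the WT mean was 0.882 for the HSP70 and HSP90 list, 0.893 for the lectin chaperones and isomerases, 0.937 for translocation, 0.971 for ERAD and 0.962 for the sensors.

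The stress sensors and their factor were close to 0, with 0 of 3 called and a median log2 fold change of 0.00. Xbp1, the factor activated by IRE1 splicing, stood at 173, 201 and 197 CPM in KO, against 185, 202 and 196 CPM in WT. KO replicates 2 and 3 lay inside the WT range and KO replicate 1 below it. Its log2 fold change was -0.03 (SE 0.07, 95% interval -0.19 to 0.13, edgeR adjusted p = 0.872), and the sign turned to 0.04 without KO replicate 1. Ern1, which encodes IRE1α, was low, at 3.88 ± 0.127 TPM in KO and 3.63 ± 0.0223 TPM in WT (SD, n = 3 each). In CPM its libraries stood at 15.6, 14.7 and 14.7 in KO, against 14.4, 14.6 and 13.8 in WT. All KO libraries of Ern1 lay above all WT libraries by a narrow margin, with a log2 fold change of 0.07 (SE 0.07, edgeR adjusted p = 0.67). Atf6 stood at 31.2, 37.7 and 33.9 CPM in KO, against 28.1, 37.5 and 36.7 CPM in WT. The 2 groups of Atf6 covered each other, with a log2 fold change of 0.00 (SE 0.12, edgeR adjusted p = 0.99) whose sign turned under several settings.

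The ERAD genes lay around 0 as well. Of the 12, 0 were called, 9 had a log2 fold change below 0 and the median was -0.03. Edem2, which trims mannose from misfolded glycoproteins to mark them for disposal, had the highest log2 fold change of the 35 and stood at 79.2, 74.8 and 77.3 CPM in KO, against 62.1, 68.8 and 71.1 CPM in WT. The groups did not overlap, with WT replicate 1 the lowest library. The Edem2 log2 fold change was 0.19 (SE 0.06, 95% interval 0.05 to 0.34), its edgeR adjusted p 0.215, and its range over all settings 0.12 to 0.23. Its relatives Edem1 and Edem3 were at -0.03 and -0.04.

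Vcp, the ATPase that pulls ERAD clients out of the membrane and serves many other routes, was the most abundant gene of the list, at 314 ± 21.3 TPM in KO and 333 ± 4.60 TPM in WT (SD, n = 3 each). Its libraries stood at 551, 631 and 617 CPM in KO, against 627, 655 and 623 CPM in WT, a log2 fold change of -0.08 (SE 0.06, edgeR adjusted p = 0.569). Derl2, a channel-forming derlin, stood at 40.9, 38.1 and 39.9 CPM in KO, against 42.2, 42.0 and 42.2 CPM in WT. The KO libraries of Derl2 were all below the WT libraries, at a log2 fold change of -0.09 (SE 0.05, edgeR adjusted p = 0.472). Vcp had counts with decimals in 6 libraries and Derl2 in 5, and both overlap a gene on the other strand, Mis12 for Derl2 and 1700022I11Rik for Vcp, so their levels are uncertain.

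Syvn1, the ubiquitin ligase HRD1 of the pathway, was at -0.10, with decimal counts and an overlap with Mrpl49. Its scaffold Sel1l was at 0.03 (95% interval -0.08 to 0.13) with the smallest standard error of the 35, 0.05. Selenos was at -0.05, Derl1 at -0.03, Herpud1, a scaffold and a known stress target, at -0.02, and Os9, a lectin that delivers clients to HRD1, at 0.02. In each of these 6 the groups overlapped. Derl3, the derlin of secretory cells, was close to the limit of detection at 0.875 ± 0.22 TPM in KO and 1.05 ± 0.201 TPM in WT (SD, n = 3 each), and its log2 fold change of -0.25 had an SE of 0.30.

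Among the translocation genes 0 of 5 were called, all 5 had a log2 fold change below 0 and the median was -0.07. Ssr2, a subunit of the translocon-associated TRAP complex, stood at 100, 109 and 106 CPM in KO, against 131, 113 and 112 CPM in WT. The groups did not overlap and WT replicate 1 was the highest. The log2 fold change of Ssr2 was -0.18 (SE 0.07, edgeR adjusted p = 0.319), or -0.10 without WT replicate 1, and its counts held decimals in every library. Sec61a1, the pore subunit of the channel, stood at 254, 280 and 269 CPM in KO, against 289, 280 and 294 CPM in WT, a log2 fold change of -0.10 (SE 0.06, edgeR adjusted p = 0.419). Spcs2, of the signal peptidase, was the most abundant per length, at 304 ± 9.55 TPM in KO and 317 ± 21.1 TPM in WT (SD, n = 3 each). Its libraries stood at 188, 199 and 201 CPM in KO, against 200, 194 and 209 CPM in WT, and its log2 fold change was -0.04. Sec61b was at -0.07 and Ssr1, another TRAP subunit with decimal counts, at -0.03.

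**Figure D5:**
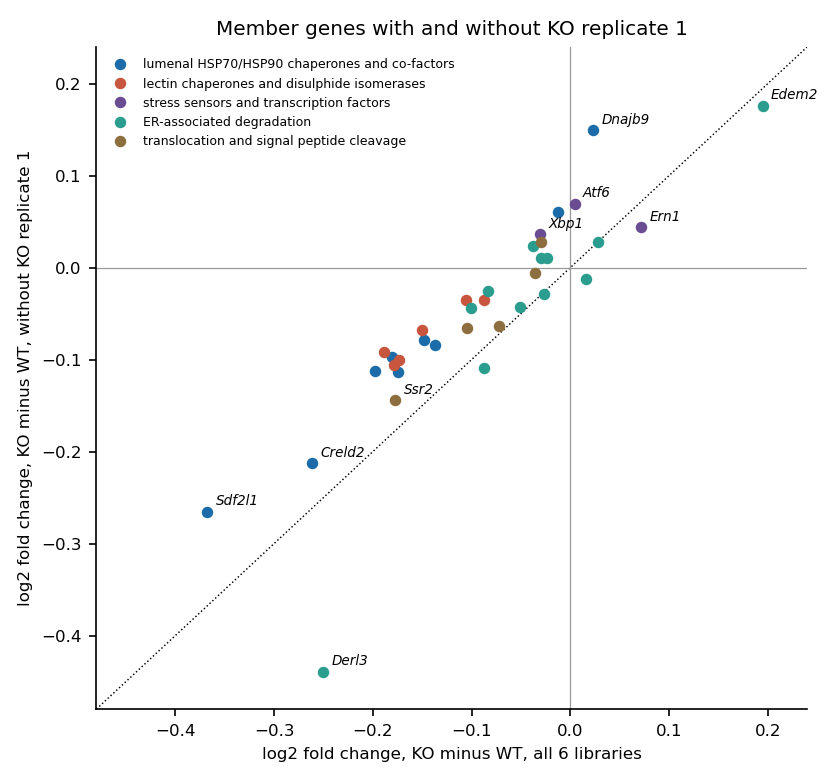
Log2 fold change of each of the 35 genes, KO minus WT, from all 6 libraries (horizontal) and without KO replicate 1 (vertical), coloured by role, with a dotted line where both are equal. Most chaperones and isomerases lie above the line and nearer to 0 on the vertical axis, such as Creld2 at -0.26 and -0.21, and Sdf2l1 at -0.37 and -0.27, while Edem2 is at 0.19 and 0.18.

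The 95% interval of each gene rests on the spread between samples, which may be technical. A difference between mice may therefore lie outside it. For the 34 genes with a mean of at least 1 TPM over the 6 libraries, the 95% intervals lay between -0.62 (Sdf2l1) and 0.34 (Edem2), that is between 1.53-fold lower and 1.27-fold higher in KO. Their standard errors ran from 0.05 to 0.12. The plasma cell markers, from a cell type rich in ER, gave little signal apart from Irf4, which activated T cells also express. Tnfrsf17 was at 0 in all 6 libraries, Jchain and Mzb1 were under 1 CPM in each, and Sdc1 was at most 1.06 CPM in KO and 1.499 CPM in WT. Irf4 itself stood at 840, 1074 and 1011 CPM in KO, against 1220, 1171 and 1089 CPM in WT. It was lowest in KO replicate 1 and highest in WT replicate 1, as most chaperones were.

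The 9 genes with an ERSE printed above had log2 fold changes that were all below 0, with a median of -0.18, and 0 were called. In 3 of them, Hspa5, Calr and Creld2, the KO libraries lay below the WT libraries, against 10.9% of all tested genes. KO replicate 1 was the lowest library in 8 of the 9, against 26.6% of all tested genes. The 20 members with a promoter window and no exact ERSE had a median of -0.04, with 15 below 0 and 12 lowest in KO replicate 1. Inexact forms were not searched for, and 2 of the 20, Dnajb11 and Herpud1, held an ERSE-II. In 4 of these 20 the KO libraries lay below the WT libraries. Of the 28 other genes with an exact ERSE, 19 were in the tables and 7 could be tested. These had a median of 0.02, with 3 below 0 and 0 called. Among these 7, KO replicate 1 was the lowest library for 0. The member sets also differ in role. The 9 are mostly chaperones and isomerases, and the 20 are mostly ERAD, sensor and translocation genes. The chaperones and isomerases among the 20 were Sdf2l1 at -0.37, Dnajb11 at -0.17, P4hb at -0.17, Pdia3 at -0.15, Pdia4 at -0.09 and Dnajb9 at 0.02. The difference between these sets was not tested, and role and element cannot be told apart in it.

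The rest of the pathway was read from lists of 96 symbols, of which 90 were in the tables and 86 could be tested. By edgeR 1 of the 86 was called, higher in KO, and 0 were lower, against 0.674% called of all tested genes. Their median log2 fold change was -0.06, with 63 below 0 (73.3%), against 50.9% of all tested genes. In 23 of the 86 (26.7%) every KO library lay below every WT library, against 10.9% of all tested genes and 28.6% of the 35 members. In 5 every KO library lay above every WT library, against 11.9%. KO replicate 1 was the lowest library for 47 of the 86 (54.7%), against 26.6%. Srp54a, a subunit of the signal recognition particle that brings ribosomes to the ER, stood at 157, 173 and 173 CPM in KO, against 121, 92.1 and 98.2 CPM in WT. Every KO library was above every WT library, with a log2 fold change of 0.69 (SE 0.10, edgeR adjusted p = 0.035). Mouse has near-identical copies of this gene, and its counts held decimals in every library, so its level is uncertain. Srp54b was at 17.5, 33.6 and 10.9 CPM in KO, against 11.0, 4.09 and 1.70 CPM in WT, and Srp54c at 117, 118 and 125 CPM in KO, against 113, 107 and 107 CPM in WT, with edgeR adjusted p of 0.304 and 0.269. The call of Srp54a was lost when any library other than WT replicate 1 was left out, with edgeR adjusted p of 0.0561 without KO replicate 1, 0.103 without KO replicate 2, 0.152 without KO replicate 3, 0.12 without WT replicate 2 and 0.133 without WT replicate 3, and with a replicate block (0.0595). By DESeq2 its adjusted p was 6.86e-08, the lowest over all settings.

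In the PERK arm 0 of 8 were called and the median was -0.02. Trib3, a pseudokinase induced by ATF4 and CHOP, was at a log2 fold change of 0.23 (edgeR adjusted p = 0.234) and Atf4 itself at -0.11 (edgeR adjusted p = 0.401). Of the other sensors and ER-bound factors 0 of 7 were called, with a median of -0.06. Creb3l2 and Creb3l1, ER-bound factors that are cut like ATF6, were at -0.39 (SE 0.09) and -0.55 (SE 0.14). Creb3l2 stood at 45.7, 56.6 and 53.2 CPM in KO, against 67.3, 72.0 and 63.9 CPM in WT, with an edgeR adjusted p of 0.111, a DESeq2 adjusted p of 0.00542 and a highest adjusted p over all settings of 0.279. Creb3l1 stood at 3.77, 3.49 and 3.32 CPM in KO, against 4.58, 5.69 and 5.21 CPM in WT, with an edgeR adjusted p of 0.154. In both the groups did not overlap.

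Of the other folding enzymes 0 of 25 were called and 20 lay below 0, with a median of -0.10. Prkcsh, the regulatory subunit of glucosidase II, was at -0.20 and Dnajc10, a J-domain disulphide reductase, at -0.24, with edgeR adjusted p of 0.236 and 0.267. Of the other ERAD components 0 of 21 were called, with a median of -0.04. Ube2j1, the membrane-anchored ubiquitin-conjugating enzyme that serves HRD1, stood at 133, 149 and 148 CPM in KO, against 105, 119 and 114 CPM in WT. The groups of Ube2j1 did not overlap, and its log2 fold change was 0.35 (SE 0.07, edgeR adjusted p = 0.0882), with an adjusted p of 0.0399 with a replicate block, 0.00124 by DESeq2 and 0.281 at the highest, without KO replicate 3. Faf2, which recruits VCP, was at -0.13 (edgeR adjusted p = 0.274). In the other translocon and signal peptidase genes the median was -0.09 over 19, with 15 below 0 and 1 called, Srp54a. Sec11c stood at 36.1, 37.4 and 36.4 CPM in KO, against 41.4, 45.8 and 45.7 CPM in WT, and the groups did not overlap. Its log2 fold change was -0.27 (SE 0.06, edgeR adjusted p = 0.103), and it was called by DESeq2. Of the 6 ER-phagy receptors 0 were called, with Calcoco1 at 0.27 and Tex264 at -0.13 (edgeR adjusted p of 0.184 and 0.369).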

How the data were processed

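The authors deposited, for each of the 6 samples, 1 table with estimated counts of all genes and another with TPM values. Per the submitters' processing notes reads were handled with FastQC and HISAT2, while the counting program, genome build and annotation were not given in the sources used here. From 23.5 to 25.2% of genes in a library had counts that were not whole, which is seen where reads are shared between genes. Before testing, expected counts were rounded. Genes were kept by the filterByExpr default (12768 of 21899), scaled by TMM and tested, KO against WT, in R 4.3.3 with edgeR 4.0.16 (its quasi-likelihood F test, which is two-sided), with genotype as the single term and Benjamini-Hochberg adjustment over all tested genes at 0.05. Fold changes are KO minus WT on the log2 scale. DESeq2 1.42.0 and limma 3.58.1 were alternatives.

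The members, the other lists, the tests and the alternatives were chosen with earlier results of these data known. Values in every sample are given for members called, the 2 of smallest p and the 1 of highest TPM in each role list, and Hspa5, Xbp1, Ern1 and Atf6. The genes named from each other pathway list are those called or, where none was, the 2 of smallest p, some with their fold change alone. Dlst, Foxp3, Cd4, Cd8a, Cd8b1, Mrc1, Itgax, Irf4, Sec11c, Srp54b and Srp54c are outside that rule and were chosen with their values known. Of the listed symbols, Ero1l, Ero1lb, Ufd1l, March6, Vimp and Srpra, other names of genes also listed, matched no row. Positions are from GENCODE M21 (GRCm38), and promoter sequences from RefSeq (GRCm38.p6), which need not be the build of the authors. The test was tried on simulated counts before use. Tables and figures were made in Python 3.11.15 (pandas 2.3.3, matplotlib 3.10.9).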

Additional observations from a re-analysis of the deposited data

How the results depend on the processing

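No member was called under any of the 16 alternatives (34 of the 35 were tested under the stricter filter), and the median log2 fold change of the members stayed below 0, from -0.11 with KO replicates 2 and 3 summed to -0.04 without KO replicate 1 and WT replicate 1 together. Over all tested genes 86 were called, against 527 by DESeq2, 133 with no low-count filter, 39 with the stricter filter (10 CPM in 3 samples), 39 by limma on log2(TPM + 1), 177 with a replicate block, 8 with KO replicates 2 and 3 summed and 538 without KO replicate 1 and WT replicate 1. Leaving out a library gave 4 (without KO replicate 3), 10 (without KO replicate 2), 16 (without WT replicate 3) and 27 (without WT replicate 2) calls, against 82 without KO replicate 1 and 93 without WT replicate 1. The other pathway genes had 1 call, against 4 by DESeq2, 0 by limma on log2(TPM + 1), 0 with KO replicates 2 and 3 summed, 5 without KO replicate 1 and WT replicate 1, and 0 to 1 with a library left out. The Xbp1 log2 fold change ran from -0.072 to 0.036 and that of Atf6 from -0.12 to 0.079 with a library left out. Without KO replicate 1 and WT replicate 1 they were 0.0016 and -0.051, and Atf6 was at -0.029 with KO replicates 2 and 3 summed. The cause of these changes was not tested. Deviations from the group means correlated at 0.18, 0.08 and 0.08 for replicate numbers 1, 2 and 3. KO replicates 1 and 2 each correlated best with the WT replicate of the same number. KO replicate 3 correlated best with WT replicate 2, at 0.11. Whether replicate numbers pair the samples is not settled by these values. With the replicate block the count of members called was 0 and their median -0.09. KO replicates 2 and 3 were the closest pair, with a biological coefficient of variation of 2.97% where other pairs of the same genotype reached 7.12 to 14.8%, and differed by more than counting noise (chi-square of 3.72 per gene).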
